A study of Homo sapiens with 6 samples.

Results

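The 10 genes described here encode the machinery that removes the 5′ cap from messenger RNA and degrades the uncapped body from its 5′ end: DCP2, DCP1A, DCP1B, EDC3, EDC4, LSM1, PATL1, DCPS, XRN1 and XRN2. They were chosen by the gene name in the array files, which gave 12 probes for the 10 genes among 50586 probes for cell RNA. DCP1A and EDC4 had 2 probes each and the other genes had 1 each.

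RNA carrying a m3G or m7G cap was immunoprecipitated from 20 µg of total RNA of MOLT-4 cells, a human T-cell acute lymphoblastic leukaemia line, and 1 Agilent array, read in 1 colour, was hybridised for each eluate. The mock group held 3 arrays of cells given an empty vector, and the NUDT16 group held 3 arrays of cells transfected with NUDT16, which encodes another RNA decapping enzyme. Promoter, time after transfection and whether the replicates were separate cultures are not given in the sources used here, so the p-values measure only the spread between these samples, which may be technical. The question is whether eluted transcripts differ in signal once NUDT16 is overexpressed.

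Decapping is a step from which an mRNA does not normally return. DCP2, a Nudix hydrolase, cuts the m7G cap from full-length mRNA with the help of DCP1 proteins, EDC3 and EDC4, and the LSM1-containing ring with PATL1 brings it to deadenylated transcripts. XRN1 then digests the exposed 5′ monophosphate end in the cytoplasm, XRN2 does the same in the nucleus, and DCPS hydrolyses the cap fragment left by decay from the 3′ end. The values below are signals of the mRNAs that encode these proteins in the cap eluate, not measures of decapping activity. Input RNA was not analysed here. The abundance of a transcript, the share of it that carries a cap and recovery in the immunoprecipitate therefore cannot be told apart. Each immunoprecipitation took 20 µg of total RNA, so the values do not measure cell number or RNA per cell.

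The antibody is directed at the structure joined to the first transcribed base. To show where that cap sits on these mRNAs, the annotated starts of 9 genes are printed from RefSeq (GRCh38.p14), with the last 15 bases before the start in lower case and the first 15 transcribed bases in capitals. XRN2 has 2 annotated starts.
DCP2, chr5:112976783-112976812, plus strand: ccgccccttccccttCTCGTCTCCGTTGGA
DCP1A, chr3:53347529-53347558, minus strand: gactccgcccccaccAGAGGGGCTAGGCTC
DCP1B, chr12:2004443-2004472, minus strand: gcttccaagagccccGTGCCTATGTCTGGG
EDC3, chr15:74696010-74696039, minus strand: tggtggcgtggagacGTGGGGGCGCTTCCG
EDC4, chr16:67873037-67873066, plus strand: ctggcaggttccgggAGCCTCGGCTCGTGG
PATL1, chr11:59669023-59669052, minus strand: aggcgcgcctgcgcaCGTCCCCACGCACGC
DCPS, chr11:126304045-126304074, plus strand: gcagggggcgcaggcGCACACCGCCTCCGC
XRN1, chr3:142448023-142448052, minus strand: gggcggtgtgttgtcATCCGCGGAGCGACG
XRN2, upstream start, chr20:21303316-21303345, plus strand: gtgctggtgccctctGCCGCTGCTCCCGTC
XRN2, downstream start, chr20:21303483-21303512, plus strand: cgccaggcggccgccACACTCGAGCCCGGG

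The first base was A in 4 of these 10 starts, G in 4, C in 2 and T in 0. Among 35114 start windows of all genes in the same table, the shares were 44.4% A, 33.6% G, 14.7% C and 7.24% T. Annotated starts need not be the starts used in MOLT-4 cells.

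The probes are 60-base oligonucleotides and lie far downstream of the cap, so they report the eluted RNA by its body or 3′ end. By the files' positions they began between base 858 of the LSM1 transcript and base 9869 of the XRN1 transcript. Of the 12 probes, 2 cover more genome than their own length and therefore cross an intron, which makes them readouts of spliced RNA. They are printed for that reason.
EDC4, probe A_24_P399009, chr16:67916002-67916163 (hg19): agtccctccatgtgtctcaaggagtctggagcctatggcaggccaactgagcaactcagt
XRN2, probe A_23_P166135, chr20:21337284-21338413 (hg19): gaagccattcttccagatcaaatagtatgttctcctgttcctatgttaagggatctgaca
The EDC4 probe skips 102 bases of intron and the XRN2 probe 1070 bases.

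Values below are log2 signals. From each the array's own 75th percentile was subtracted, computed over the 6582 probes that exceeded background clearly on all 6 arrays by the scanner software's mark (written well above background here), so 0 is the signal of a bright probe. Signals of different probes are not compared with each other, because probes bind with different strength.

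The arrays differed in brightness. Between 39.3% and 52.0% of 58717 spots lay well above background on 5 arrays, against 14.6% on NUDT16 replicate 2. The lowest signal well above background stood at -3.52 on NUDT16 replicate 2 and between -8.02 and -7.05 on the other 5 arrays. The 12 probes were well above background on mock replicates 1 and 3 and on NUDT16 replicates 1 and 3, 11 of them on mock replicate 2, and 4 on NUDT16 replicate 2. These 4 of the 11 tested probes, those of DCP1A (A_23_P166826), EDC4 (A_33_P3294392), LSM1 and DCPS, were so on all 6 arrays, against 37.1% of all tested probes, and 37.5% of those were so on NUDT16 replicate 2. The mock and NUDT16 arrays of a replicate number shared a slide and a scan. T-lineage markers were present, with 8 of 10 such genes well above background on all 6 arrays, while PAX5 and MS4A1 (B cell), MPO and CSF1R (myeloid) and HBB (erythroid) were on none. CD79A, a B-cell receptor gene, was above background on all 6 arrays.

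Neither probe for NUDT16 was well above background on any array, so these probes do not check the labels. The probe A_21_P0012400 for the NUDT16 pseudogene NUDT16P1 exceeded background on each of the 3 NUDT16 arrays and on 0 of the 3 mock arrays. Each mock array was taken at its detection limit or at the probe's value, whichever was higher. The NUDT16 group was then at least 31.4-fold higher for this probe. The limma adjusted p of 0.00155 belongs to the values as read, mock values not well above background included. The probe entered the test through the NUDT16 arrays alone. It was the only probe called among 17765 tested, which is 0.00563% of them. The other NUDT16P1 probe, A_24_P626981, was well above background on 0 arrays of either group and was not tested.

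No probe of the decapping and exonuclease genes passed the threshold for a difference between the groups. Of the 12 probes, 11 entered the test and 0 were called higher or lower (limma with Benjamini-Hochberg adjustment, every adjusted p 0.999), with 0 also at an unadjusted p under 0.05, against 0.045% of all tested probes. This fit has no block, so its error includes the spread between replicate numbers. With a replicate block, given below, 3 of the 11 probes and 9.76% of all tested probes had an unadjusted limma p under 0.05. The blocked fit called 0 of the 11. The fitted difference was above 0 for 5 probes and below 0 for 6, where 43.2% and 56.8% of all tested probes lay. Their median was -0.12 against -0.11 over all tested probes, and it turned to 0.13 without mock replicate 1, 0.12 without mock replicate 3 and 0.53 without NUDT16 replicate 2. The split of 5 above and 6 below followed the scaling, as did the share of all tested probes above 0. It was 0 and 11 without scaling (1.32% of all above 0), 1 and 10 with each array shifted by its median (6.15%), 3 and 8 in the authors' table (39.4%) and 8 and 3 with normexp background correction (81.4%). The groups overlapped for each of the 11, and 0.591% of all tested probes had groups without overlap. The 95% intervals ran from -2.98 to 2.16 over the 11 probes, so the missed threshold does not show equal levels. The fitted difference was at least 2-fold for 2 of the 11 probes, 1 of DCP1A and that of XRN2, both with lower means in the NUDT16 group. That of XRN2 rests on a value on NUDT16 replicate 2 that was not well above background, and it is -0.89, under 2-fold, with that array at its limit of -3.52. Of all tested probes 8.35% differed so in either direction and 7.05% downwards. The NUDT16 array was higher for 4 of the 11 probes in the pair of replicate 1 and for 8 in that of replicate 3, against 27.9% and 44.4% of all tested probes. In the pair of replicate 2 only 4 of the 11 probes were well above background on both arrays, of which 2 were higher in NUDT16 and 2 lower.

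**Figure D1:**
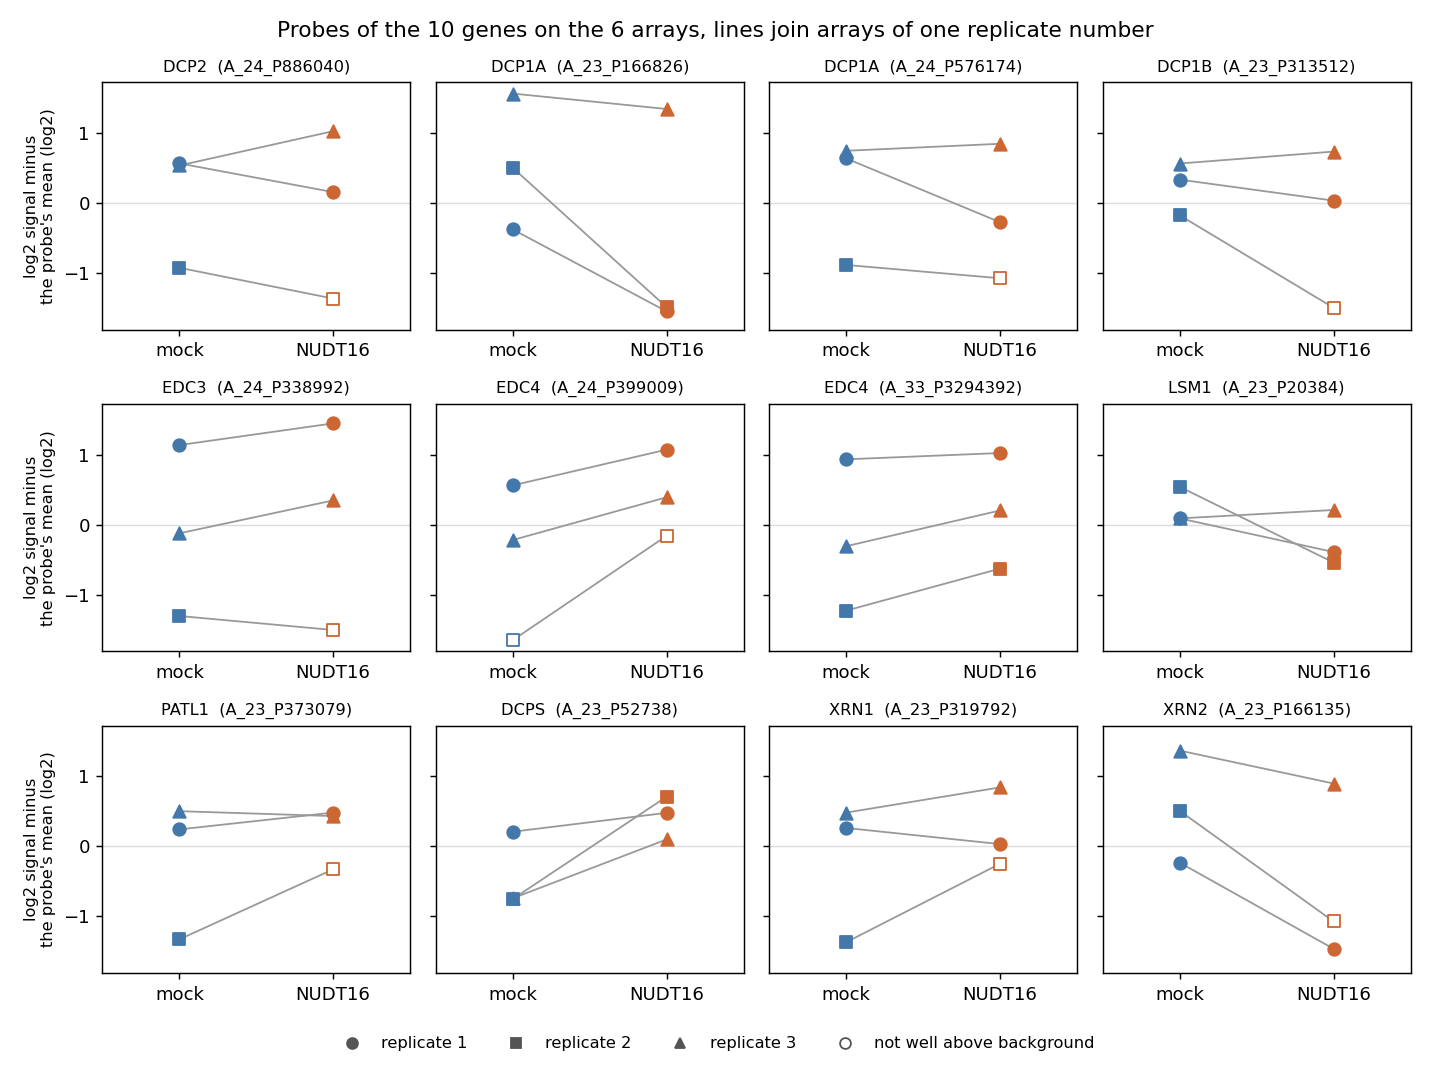
Each panel is 1 probe; the vertical axis is the log2 signal minus the mean of that probe over the 6 arrays, and lines join the mock and NUDT16 arrays of a replicate number. Open symbols mark arrays on which the probe was not well above background, 8 of 12 probes on NUDT16 replicate 2 and 1 on mock replicate 2; the groups overlap in all 12 panels.

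DCP2 is the catalytic subunit, and its probe A_24_P886040 lies at chr5:112356209-112356268 (hg19). It read -3.82, -5.31 and -3.85 on mock replicates 1, 2 and 3 and -4.23, -5.75 and -3.36 on NUDT16 replicates 1, 2 and 3. Mock replicate 2 was the lowest mock array, NUDT16 replicate 2 was not well above background, and the NUDT16 arrays of replicates 1 and 3 lay on either side of the mock arrays of those numbers. The difference, NUDT16 minus mock, was -0.12 with a standard error (SE) of 0.75 and a 95% interval from -1.75 to 1.51. Without NUDT16 replicate 2 it was 0.53, and without mock replicate 1 or 3 it was 0.13 or 0.12.

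DCP1A and its paralogue DCP1B activate DCP2. The DCP1A probe A_23_P166826 (chr3:53321388-53321447, hg19) read -1.53, -0.65 and 0.41 in mock and -2.70, -2.64 and 0.19 in NUDT16. It was well above background on all 6 arrays, and the NUDT16 array was the lower in each of the 3 same-numbered pairs, by differences of -1.17, -1.99 and -0.22. The mean of -0.59 ± 0.97 (SD, n = 3) in mock stood against -1.72 ± 1.65 (SD, n = 3) with NUDT16, a difference of -1.13 (SE 0.85, 95% interval -2.98 to 0.73). The lowest mock array lay below the highest NUDT16 array, so NUDT16 replicate 3 alone made the groups overlap. The difference was -0.63 without mock replicate 3, -0.64 without NUDT16 replicate 1, -0.66 without NUDT16 replicate 2 and -2.08 without NUDT16 replicate 3. Of all tested probes, 27.5% were lower in 3 of 3 pairs.

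The other DCP1A probe, A_24_P576174 (chr3:53317622-53317681, hg19), begins 3766 bases further along the transcript. It read -2.99, -4.51 and -2.88 in mock and -3.90, -4.70 and -2.78 in NUDT16, with pair differences of -0.91, -0.20 and 0.10. Its difference of -0.34 (SE 0.71) rests in part on NUDT16 replicate 2, where this probe was not well above background, and was 0.12 without that array. The 2 probes shared a sign in the pair of replicate 1 and not in that of replicate 3, and the groups overlapped for both. Over the 6 arrays, which share slides and scaling, their signals correlated at r = 0.62.

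DCP1B was read by A_23_P313512 (chr12:2055294-2055353, hg19). It had -3.90, -4.41 and -3.67 in mock and -4.20, -5.73 and -3.50 in NUDT16. The mock arrays lay within 0.38 (SD), NUDT16 replicate 1 lay among them and NUDT16 replicate 3 above them, while NUDT16 replicate 2 was not well above background. The difference of -0.48 (SE 0.69) became 0.14 without that array.

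EDC3 and EDC4 are scaffolds that hold decapping proteins together in cytoplasmic granules. EDC3 (A_24_P338992, chr15:74923275-74923334, hg19) read -3.02, -5.46 and -4.28 in mock and -2.71, -5.66 and -3.81 in NUDT16. Replicate 1 was above replicate 3 in either group, mock replicate 2 was the lowest mock array and NUDT16 replicate 2 was not well above background. The group difference of 0.19 (SE 0.85) was smaller than the SD of 1.22 among the mock arrays. The sign turned without mock replicate 2 (-0.41) or NUDT16 replicate 1 (-0.48), and the value was 0.81 without mock replicate 1 and 0.99 without NUDT16 replicate 2.

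The downstream EDC4 probe, A_33_P3294392 (chr16:67918296-67918355, hg19), was well above background on all 6 arrays. It read 1.02, -1.14 and -0.22 in mock and 1.11, -0.54 and 0.29 in NUDT16. The NUDT16 array was the higher in 3 of 3 pairs, by 0.09, 0.61 and 0.52, as were 15.9% of all tested probes. The difference of 0.41 (SE 0.72, 95% interval -1.17 to 1.98) was within the spread of the mock arrays (SD 1.09), and was -0.11 without mock replicate 2 and -0.01 without NUDT16 replicate 1.

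The EDC4 probe across the intron read -4.92, -7.13 and -5.70 in mock and -4.41, -5.64 and -5.09 in NUDT16, and was not tested because it was not well above background on replicate 2 of either group. Its pair differences on replicates 1 and 3 were 0.51 and 0.61, also with the NUDT16 array higher. The 2 EDC4 probes correlated at r = 0.93 over the 6 arrays, which include those 2 values.

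LSM1 gives its name to the ring of LSM1 to LSM7, which binds oligoadenylated 3′ ends, and PATL1 links that ring to DCP2. LSM1 (A_23_P20384, chr8:38021082-38021141, hg19) read -1.24, -0.79 and -1.24 in mock and -1.72, -1.87 and -1.12 in NUDT16. It was the steadiest of the tested probes here, with a range of 1.07 over the 6 arrays, and 10.1% of all tested probes had a range as small. The difference was -0.48 (SE 0.58, 95% interval -1.74 to 0.79), lower in 2 of 3 pairs, and the probe was well above background on all 6 arrays.

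PATL1 (A_23_P373079, chr11:59404646-59404705, hg19) read -4.99, -6.56 and -4.73 in mock and -4.75, -5.56 and -4.80 in NUDT16. The groups overlapped, and the pairs of replicates 1 and 3 differed by 0.24 and -0.07. The probe was not well above background on NUDT16 replicate 2. The mean difference of 0.39 (SE 0.67) was -0.18 without mock replicate 2.

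DCPS, the scavenger enzyme, had the highest NUDT16 minus mock difference among the 11 tested probes. Its probe A_23_P52738 (chr11:126215496-126215555, hg19) was well above background on all 6 arrays and read -1.84, -2.80 and -2.79 in mock and -1.57, -1.34 and -1.95 in NUDT16. The NUDT16 arrays were higher in 3 of 3 pairs, by 0.28, 1.47 and 0.84, and only the lowest NUDT16 array lay under the highest mock array. The mean was -2.48 ± 0.55 (SD, n = 3) for mock against -1.62 ± 0.31 (SD, n = 3) for NUDT16, a difference of 0.86 (SE 0.60, 95% interval -0.44 to 2.16). Without scaling between arrays it was -0.13.

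XRN1, the cytoplasmic 5′-to-3′ exonuclease, was read by A_23_P319792 (chr3:142025612-142025671, hg19). It had -4.83, -6.46 and -4.61 in mock and -5.06, -5.34 and -4.25 in NUDT16. As for PATL1, mock replicate 2 was the lowest mock array, NUDT16 replicate 2 was not well above background, and the groups overlapped. The difference was 0.41 (SE 0.68) over all arrays, -0.17 without mock replicate 2 and 0.10 without NUDT16 replicate 3.

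XRN2, the nuclear exonuclease that also acts in transcription termination, stood on the other side of 0. Its intron-crossing probe read -3.29, -2.55 and -1.69 in mock and -4.52, -4.13 and -2.16 in NUDT16. The NUDT16 array was lower in 3 of 3 pairs, as were 27.5% of all tested probes. The differences were -1.23, -1.57 and -0.46, although the highest NUDT16 array lay above the 2 lowest mock arrays. NUDT16 replicate 2 was not well above background, so the size of -1.57 was not measured. With that array at its limit, the pair differs by -0.97. The mean was -2.51 ± 0.80 (SD, n = 3) for mock against -3.60 ± 1.27 (SD, n = 3) for NUDT16, a difference of -1.09 (SE 0.75, 95% interval -2.72 to 0.55). It was -0.63 without NUDT16 replicate 1, -1.81 without NUDT16 replicate 3 and -0.68 without mock replicate 3.

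**Figure D2:**
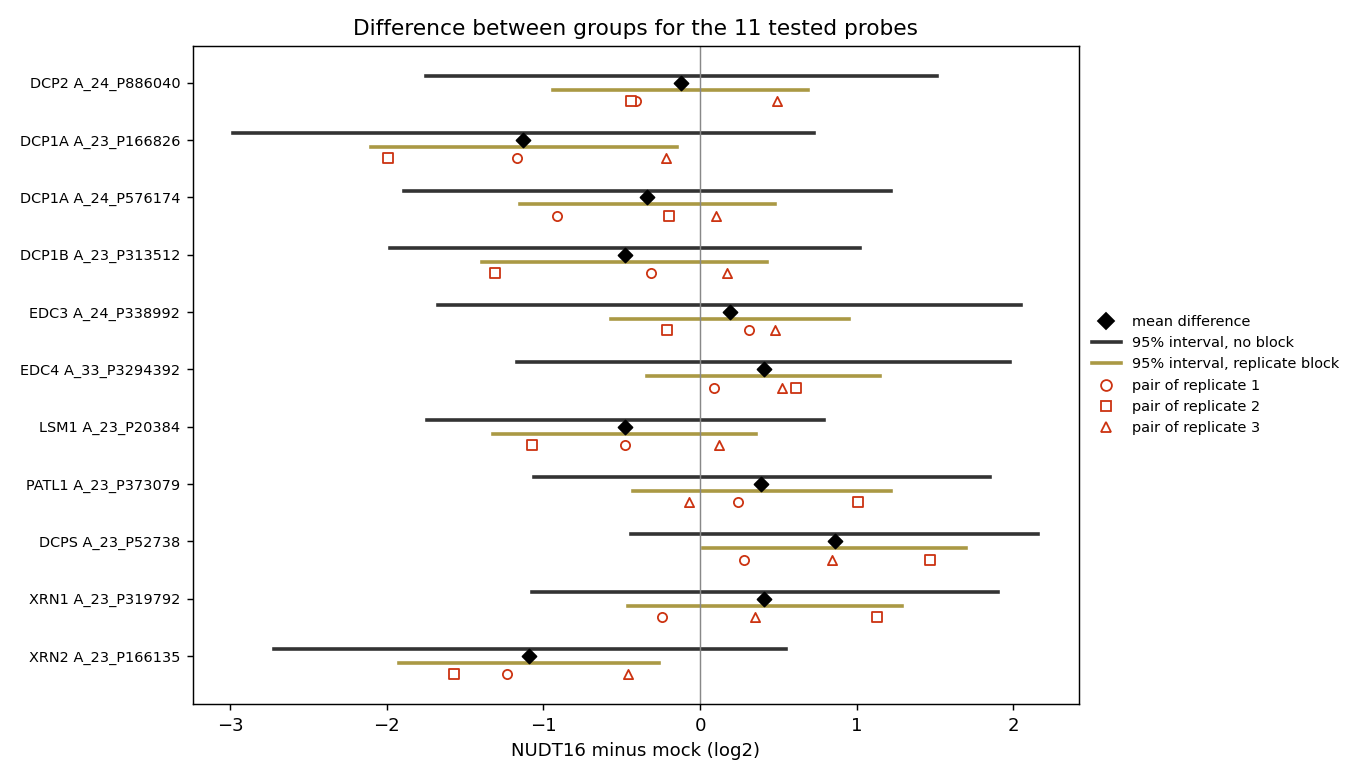
For each of the 11 tested probes, the diamond is the mean NUDT16 minus mock difference (log2), bars are 95% intervals of limma without and with a replicate block, and open symbols are the 3 same-numbered pairs. Every interval without the block spans 0. With the block, those of DCP1A A_23_P166826, DCPS and XRN2 do not, before any adjustment for the number of probes tested. The XRN2 value on NUDT16 replicate 2 was not well above background.

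Arrays of a replicate number varied together: across 17765 probes, the deviations of the 2 arrays from their group means had correlations of 0.84, 0.39 and 0.77 in replicates 1, 2 and 3. In a fit blocked on the replicate number, the SE was 0.41 for the DCP1A probe A_23_P166826, 0.35 for DCPS and 0.35 for XRN2. These 3 of the 11 probes then had an unadjusted p under 0.05 (limma, 0.0293, 0.0458 and 0.0177), and each had an adjusted p of 0.467. That of XRN2 rests in part on a value on NUDT16 replicate 2 that was not well above background. Of all tested probes, 9.76% had such an unadjusted p in either direction and 8.94% downwards, the direction of DCP1A and XRN2. DCPS was higher in NUDT16, a direction that held only the small remainder of that 9.76%. The block called 0 of the 11 probes.

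NUDT16 replicate 2 limited what could be measured. Of the 11 tested probes, 7 were not well above background there, and for 6 of these the mock array of replicate 2 itself read below -3.52, the lowest signal well above background on its NUDT16 partner. For PATL1, XRN1, DCP2, EDC3, DCP1B and the downstream DCP1A probe, that pair therefore gives no direction. XRN2 was the exception: mock replicate 2 read -2.55, and its NUDT16 partner, taken at that limit, gives a difference of -0.97. With NUDT16 replicate 2 at that limit for the other 6, the group differences would run from 0.06 for the downstream DCP1A probe to 1.07 for PATL1.

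Leaving out replicate 2 gave the values from the 2 pairs in which all 12 probes were measured. This paired fit leaves 1 residual degree of freedom per probe and gave each of these probes the same SE, 0.30, taken from all probes. XRN2 had in it a difference of -0.84 (limma adjusted p 0.0905), DCP1A A_23_P166826 had -0.69 (0.188) and DCPS had 0.56 (0.308), and 0 of the 11 probes were called. The same fit called 613 of the 17765 probes, 601 of them lower in NUDT16. The median over the 11 probes was 0.04 there, against -0.22 over all tested probes.

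Replicates 1 and 3 differed from each other for several of these genes. The difference between replicates 1 and 3, averaged over both groups, exceeded the NUDT16 minus mock difference in size for 7 of 11 probes and for 80.7% of all tested probes. DCP1A A_23_P166826 was lower in replicate 1 than in replicate 3 by -1.94 in mock and -2.88 in NUDT16, and XRN2 by -1.60 and -2.36. EDC3 went the other way, with 1.26 and 1.09, and so did the downstream EDC4 probe, with 1.25 and 0.82. A difference of at least 1 in the same direction in both groups was found for 3 of the 11 probes, those of DCP1A A_23_P166826, XRN2 and EDC3, and for 40% of all tested probes. Replicate 1 lay above replicate 3 in both groups for 3 of the 11 probes and below it in both for 6, against 28.5% and 58.7% of all tested probes. The probes of DCP1A (A_23_P166826) and XRN2 had both the lowest group differences and the lowest differences of replicate 1 from replicate 3. Slide and scan follow the replicate number and cannot be told apart. Whether sample preparation also followed it is not given in the sources used here.

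**Figure D3:**
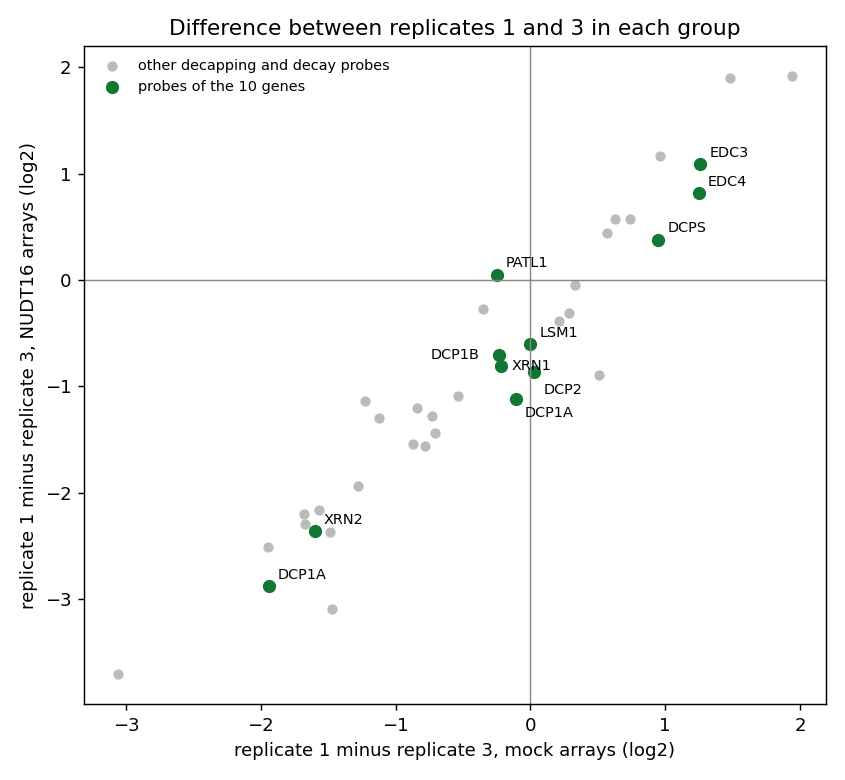
Points are probes, with replicate 1 minus replicate 3 in the mock arrays on the horizontal axis and in the NUDT16 arrays on the vertical axis (both log2). The probes of the 10 genes (green) run from DCP1A A_23_P166826 and XRN2 at the lower left to EDC3 and EDC4 at the upper right; the other decapping and decay probes (grey) spread along the same diagonal.

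The proteins that work beside these enzymes, or act on caps themselves, were read in the same way. The list held LSM2 to LSM7, DDX6, LSM14A, LSM14B, EIF4ENIF1, PNRC1, PNRC2, PATL2, the decapping exonuclease DXO (DOM3Z on the array), NUDT3, FHIT and the XRN2-binding proteins CDKN2AIP, CDKN2AIPNL and NKRF, 19 genes in all. Of their 30 probes 27 were tested, for 17 genes, and 0 were called in either direction, with 0 at an unadjusted p under 0.05. With the replicate block 4 of the 27 had an unadjusted limma p under 0.05, against 9.76% of all tested probes, and 0 were called. The fitted difference was below 0 for 22 of the 27, against 56.8% of all tested probes, with a median of -0.44 against -0.11. That gap of -0.33 was -0.05 with quantile normalization, -0.05 in the authors' table and -0.08 without mock replicate 2. It was -0.02 in the paired fit on replicates 1 and 3. The gap was larger without mock replicate 1 (-0.48), without NUDT16 replicate 3 (-0.48) and without a filter (-1.07). In the other settings it lay between -0.33 and -0.18. By pair the median was -0.46, -0.75 and 0.07, and 11 of the 27 probes were well above background on NUDT16 replicate 2.

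PNRC2, an adaptor that ties DCP1A to nonsense-mediated decay, had the lowest difference in that list among probes well above background on all 6 arrays. Its probe A_33_P3323742 read -3.75, -0.38 and -0.69 in mock and -4.93, -2.94 and -1.22 in NUDT16, lower in 3 of 3 pairs, with a difference of -1.42 (SE 1.04, limma adjusted p 0.999). With the replicate block this PNRC2 probe had an unadjusted limma p of 0.0154 and an adjusted p of 0.467. Replicate 1 was again the lowest in either group. LSM2, a subunit of the ring that LSM1 completes, had the highest: A_23_P59153 read -1.24, -2.23 and -2.20 in mock and -0.73, -1.51 and -1.90 in NUDT16, higher in 3 of 3 pairs, with a difference of 0.51 (SE 0.62, limma adjusted p 0.999). In the paired fit on replicates 1 and 3, 1 of the 27 probes was called, A_33_P3367577 of EIF4ENIF1, the eIF4E transporter, with -1.07 (limma adjusted p 0.0204). That value rests on NUDT16 replicate 1, where the probe was not well above background (-7.88, against a limit of -7.60). Over all arrays it had a difference of -0.07.

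The unscaled and median-shifted fits move every probe down alike. Apart from them, the sign of the group difference turned in at least 1 alternative, arrays left out included, for 7 of the 11 probes. DCP1A A_23_P166826, XRN2 and LSM1 were below 0 in each alternative in which they could be computed, from -2.12 to -0.63, from -2.08 to -0.40 and from -1.48 to -0.18. DCPS was above 0 in 17 of 18 alternatives, the unscaled fit being the other. The adjusted p of these probes ranged from 0.0905 to 1 over the alternatives, and 0 of 191 recomputed values passed the threshold.

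**Figure D4:**
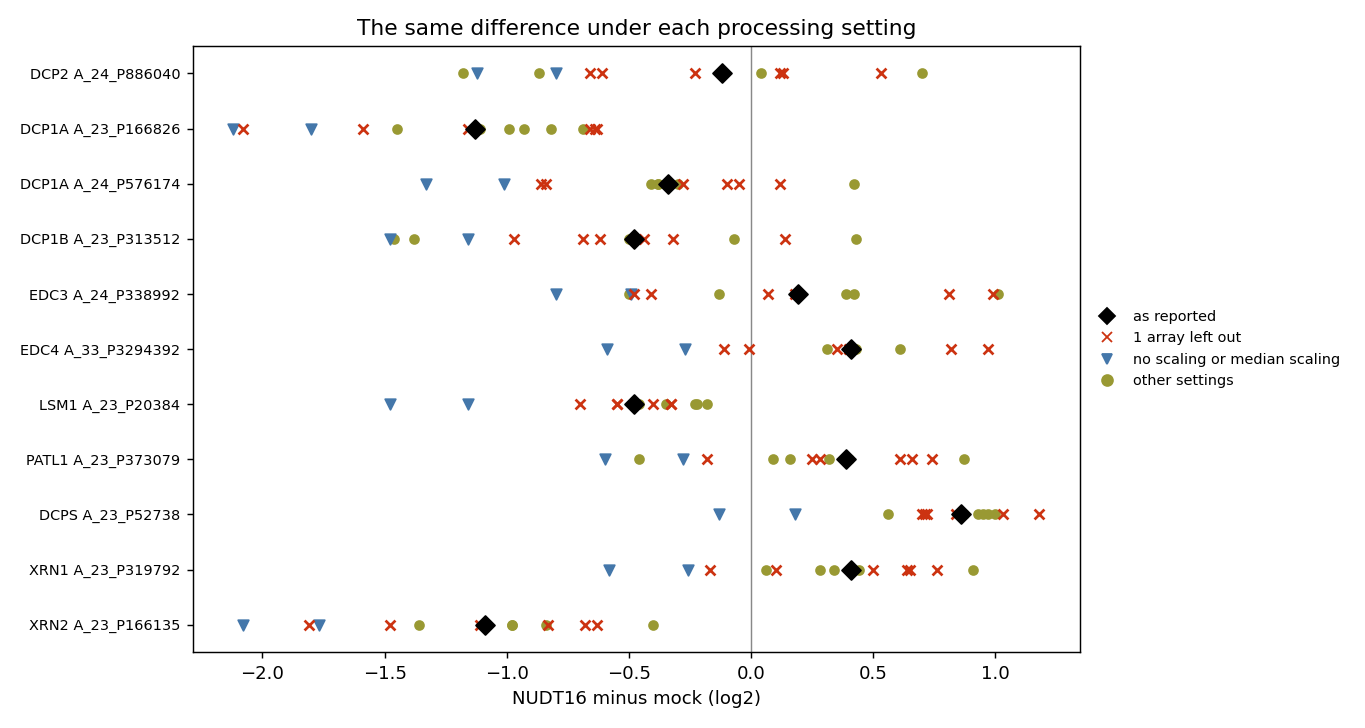
Each row is 1 of the 11 tested probes and each symbol its NUDT16 minus mock difference (log2) under 1 setting: as reported, with 1 array left out, with no scaling or median scaling, or under the other settings. DCP1A A_23_P166826, LSM1 and XRN2 lie to the left of 0 throughout, and DCPS to the right in all but the unscaled fit.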

How the data were processed

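Per the file headers, probe coordinates are on hg19 and the scans were quantified by Agilent's Feature Extraction 10.7.3.1. The deposited intensity of a spot has had background and spatial trend removed on its own array, and surrogate values replace spots at background, which compresses dim spots. Nothing was normalized between arrays. The authors' deposited log2 value table, whose steps are not given in the sources used here, ranked spots as median minus background intensity did (Spearman's rho 1) and served as an alternative.

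Control spots and outlier spots were dropped, spots of a probe averaged as log2 processed intensity, and each array shifted by its 75th percentile over the 6582 probes well above background on all 6 arrays; on NUDT16 replicate 2 the percentile over all probes fell among background spots. The test took 17765 probes, those well above background on 3 of 3 arrays in either group, and used limma 3.58.1 (R 4.3.3), two-sided, Benjamini-Hochberg threshold 0.05, no block. A probe counted as well above background where more than 50% of its spots did. The procedure was checked on simulated data. The replicate numbers pair the arrays: each number has its own slide and scan, and same-numbered arrays deviated together with correlations of 0.84, 0.39 and 0.77. Alternatives were other scalings, normexp background correction, other filters, a replicate block, an intensity trend, array weights, the authors' table, each array left out, and replicates 1 and 3 alone. Every probe of the 10 genes was named, and of the partner list the highest and lowest difference among probes above background on all 6 arrays; EIF4ENIF1 was named after its value was seen. The genes, lists and settings were chosen with earlier results of these data known. Arrays carry no count depth; their number limits the precision. Of the probe names, 13 had no usable spot on some array and were dropped.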

Additional observations from a re-analysis of the deposited data

How the results depend on the processing

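The count of 1 probe called on the whole array was 0 without scaling, after normexp background correction, in the authors' table, without a filter, and where only probes well above background on all 6 arrays were kept, 0 to 1 when 1 array was left out (0 without mock replicate 2), and 613 in the paired fit on replicates 1 and 3; the unadjusted count under 0.05 in the first 5 of these was 1, 1, 10, 160 and 2 in limma. The NUDT16P1 probe A_21_P0012400 was well above background on 0 of the 3 mock arrays. The filter on all 6 arrays removed it, so its call could not recur there. The count over the 11 probes of the 10 genes was 0 throughout. In the partner list it was 0, and 1 in the paired fit on replicates 1 and 3. The replicate block changed no call (lowest adjusted p of the 11 probes 0.467). Without scaling the medians moved from -0.12 to -1.12 for the 10 genes and from -0.44 to -1.43 for the partners. The median of all tested probes was then -1.10; it was -0.78 under the median shift, -0.26 with quantile normalization and 0.47 with normexp, against -0.11 as reported, and relative to it the 10 genes stood at -0.02, -0.02, -0.09 and -0.03 in these 4 settings, the first 2 fixed by the common shift. That relative value was -0.70 without a filter, 0.69 and -0.33 without NUDT16 replicates 2 and 1, -0.37 without NUDT16 replicate 3, 0.30 without mock replicate 1 and 0.26 in the paired fit on replicates 1 and 3. With 1 array left out their median ran from -0.66 to 0.53, and that of the partners from -0.78 to -0.23.

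Of 191 recomputed differences, 27 changed sign. Under the median shift PATL1 was -0.28, XRN1 -0.26, EDC4 -0.27 and EDC3 -0.49. Without scaling these were -0.60, -0.58, -0.59 and -0.80, and DCPS -0.13. Quantile normalization put EDC3 at -0.50. With normexp DCP2 was 0.70, DCP1A A_24_P576174 0.42 and DCP1B 0.43. The authors' table gave PATL1 -0.46 and EDC3 -0.13, and the paired fit on replicates 1 and 3 gave DCP2 0.04. With 1 array left out the ranges were -0.18 to 0.74 for PATL1, -0.66 to 0.53 for DCP2, -0.17 to 0.76 for XRN1, -0.11 to 0.97 for EDC4, -0.48 to 0.99 for EDC3, -0.86 to 0.12 for DCP1A A_24_P576174 and -0.97 to 0.14 for DCP1B. The shifts without scaling and with the median are common to all probes; the cause of the other changes was not tested. Under the filter on all 6 arrays 7 probes have no value. Signal over background limits every value that rests on NUDT16 replicate 2.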
